A study of Mus musculus with 6 samples.

Results

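The genes described here are those of the cytosolic translation initiation factors (symbols starting with Eif and a digit) and elongation factors (Eef and a digit), together with Tpt1. They were chosen by name from the gene symbols of the count table, leaving out numbered copy rows, pseudogenes marked -ps and the eIF2 kinases Eif2ak1 to Eif2ak4. The rule gave 68 of 23505 gene rows. It uses names alone, yet it was set with earlier results of these data known. Of the 68, 63 had enough counts to be tested. The other 5 were the tissue-restricted factor gene Eef1a2, the methyltransferase gene Eef1akmt3, the readthrough gene Eef1akmt4-ece2, the cap-binding paralog Eif4e1b and the helicase copy Eif4a3l1. Eif4a3l1 had 4 counts, all in ConA+SIM replicate 2, and the remaining 4 rows were at 0 in every library.

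All 6 RNA sequencing libraries came from liver T cells of wild-type mice that had received concanavalin A (ConA), a lectin that activates T cells and injures the liver. In the ConA group (3 libraries) the mice were gavaged with phosphate-buffered saline, and in the ConA+SIM group (3 libraries) with simvastatin, a statin that blocks the mevalonate pathway, at 30 mg/kg. Gavage was daily over the 5 days before ConA, was repeated 1 h before it and was given again 24 h after it. Cells were sorted as positive for CD3 and CD4 and negative for CD8 and NK1.1. There was no group without ConA, and the age of the mice and their number per library were not given in the sources used here.

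Translation starts when eIF1, eIF1A, eIF3, eIF5 and the eIF2 complex, which carries the initiator tRNA, load onto the small ribosomal subunit, and the cap-binding complex eIF4F brings that subunit to the mRNA. eIF2B recharges eIF2 with GTP, the eIF4E-binding proteins withhold eIF4E from eIF4F, and eIF5B joins the subunits. During elongation eEF1A delivers aminoacyl-tRNA, the eEF1B complex recharges eEF1A, and eEF2 moves the ribosome along the mRNA. Tpt1 encodes TCTP, an abundant small protein that binds elongation factors. T cells raise protein synthesis strongly when they are activated, and many ribosomal protein and elongation factor mRNAs begin with a terminal oligopyrimidine tract through which mTOR controls their translation.

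The start sites below are shown because that tract is the best known sequence feature of this gene family. Each line gives 30 bases of the sense strand, 5′ to 3′, from the RefSeq promoter table (GRCm38.p6). Capitals mark a tract, here a C followed by at least 7 letters that are each C or T. A line in lower case throughout belongs to a gene with no such tract in the 50 bases before and the 50 bases after its annotated start, and begins 10 bases before that start.
Eef1a1, chr9:78481708-78481737, minus strand: tggctccgCCCTCTTCCCgagggtggggga
Eif3f, chr7:108934403-108934432, plus strand: gttctaggCTCTCTCTCTTTCTCggcaaga
Eif3m, chr2:105017026-105017055, minus strand: cggcaccgCTCTCTTTTCCggtcggcgtgt
Eif3l, chr15:79075219-79075248, plus strand: ttcttccgCTCTCTCCCacgggcttctgga
Tpt1, chr14:75845246-75845275, plus strand: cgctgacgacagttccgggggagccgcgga
Eef1b2, chr1:63176821-63176850, plus strand: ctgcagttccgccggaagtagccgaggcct
Eef2, chr10:81176621-81176650, plus strand: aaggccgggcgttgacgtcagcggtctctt
Eif4g1, chr16:20672717-20672746, plus strand: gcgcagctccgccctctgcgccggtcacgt

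Of the 52 translation factor genes found in the promoter table, 23 had such a tract within that window (44.2%), against 32.0% of the 27025 genes in the table and 49 of 59 tested ribosomal protein genes (83.1%). On the opposite strand the shares were 25% of the translation factor genes and 34.4% of all genes. Annotated starts can lie upstream or downstream of the true one, so a match describes these letters and not a functional site.

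Total counts ran from 17549429 to 25031862 per library. The labels do not say that libraries of a group came from separate animals, and p-values here cover only the spread between these libraries, which may be technical. ConA+SIM replicate 2 stood apart, where 18.4% of the genes tested had no read, while the share elsewhere was 2.76% to 9.98%. Cd3d, Cd3g and Cd4 were present throughout, with Cd4 at 441 to 766 CPM (the count scaled to the TMM-corrected library total). Cd3d was at 312 to 453 CPM in ConA and 553 to 702 CPM in ConA+SIM. Cd3g was at 433 to 645 CPM in ConA and 786 to 993 CPM in ConA+SIM. Both were higher in every ConA+SIM library, whereas Cd3e and Cd4 overlapped between the groups. The summed level of 6 CD4 T cell markers was 1805 to 2773 CPM in ConA and 2562 to 2623 CPM in ConA+SIM. The 6 markers of CD8 T cells and NK cells were Cd8a, Cd8b1, Klrb1c, Ncr1, Klrd1 and Eomes. The sort excluded cells by CD8 and NK1.1, not by Klrd1 or Eomes. Klrd1 and Eomes together made up most of the sum in each ConA+SIM library. The 6 markers summed to 43.3 to 142 CPM in ConA and 244 to 282 CPM in ConA+SIM, so every ConA+SIM library was higher. Among them the NK1.1 gene Klrb1c was at 6.69 to 20.0 CPM in ConA and 39.0 to 43.5 CPM in ConA+SIM, Cd8b1 was at 4.64 to 33.1 CPM in ConA and 21.8 to 54.1 CPM in ConA+SIM, Cd8a was at 0 to 15.9 CPM over all libraries, and the NK cell gene Ncr1 had 0 counts in all 6. Summed erythroid markers (43.8 to 115 and 229 to 343 CPM), neutrophil markers (248 to 364 and 557 to 860 CPM, with Ly6g at 0) and hepatocyte markers (23.5 to 73.3 and 77.8 to 161 CPM, with Cps1 at 0) were likewise higher in every ConA+SIM library than in any ConA library. In edgeR 1 of the 5 erythroid markers was itself called higher at an adjusted p under 0.05, and 0 markers of the other lists were called. Macrophage markers ran from 754 to 1860 CPM in ConA and from 198 to 1064 CPM in ConA+SIM. B and plasma cell markers summed to 114 to 1170 CPM in ConA and 496 to 903 CPM in ConA+SIM. Sinusoidal endothelial markers summed to 209 to 1488 CPM in ConA and 288 to 448 CPM in ConA+SIM. In both lists ConA replicate 2 was the highest of all 6 libraries. The ribosomal protein genes took 8.49% to 10.1% of counts in ConA and 14.3% to 16.4% in ConA+SIM. The part of these differences in the results below was not tested.

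What simvastatin changed in these T cells is the question behind the comparison of the 2 groups. Among the translation factor genes, Tpt1 and the eIF3 subunit gene Eif3e rose in ConA+SIM and 0 went the other way, at an adjusted p under 0.05 over all genes in the quasi-likelihood test of edgeR. That is 3.17% of the 63 tested, against 0.542% of all 10509 tested genes called higher and 0% called lower. Tpt1 was added to the rule by its own name, so this share leans on that choice. At an unadjusted p under 0.05, 7 were higher and 2 lower, or 11.1% and 3.17%, against 5.31% and 3.54% of all tested genes. DESeq2 called 5 higher (Tpt1, Eif3e, Eif3m, Eef1b2 and Eif1a; 3.31% of all genes were called higher) and 2 lower (Eif4a3 and Eif4g1; 1.84% of all genes). limma-voom called 3 higher, Tpt1, Eif3e and Eif3m, and 0 lower (1.14% and 0.0761% of all genes), and the same 3 and 0 lower with sample quality weights (1.21% and 0.0952% of all genes).

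The translation factor genes were split by sign. Of the 63, 32 had a positive and 31 a negative log2 fold change, where 48.0% of all tested genes were positive and 52.0% negative, with a median of 0.024 beside -0.041 over all tested genes. The ConA+SIM values lay wholly above the ConA values in 9 genes (14.3%, against 9.18% of all tested genes) and wholly below in 6 (9.52%, against 8.57%). The lower share is close to that of all genes. By contrast 38 of 79 tested ribosomal protein genes were called higher, with a median log2 fold change of 0.97.

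**Figure D1:**
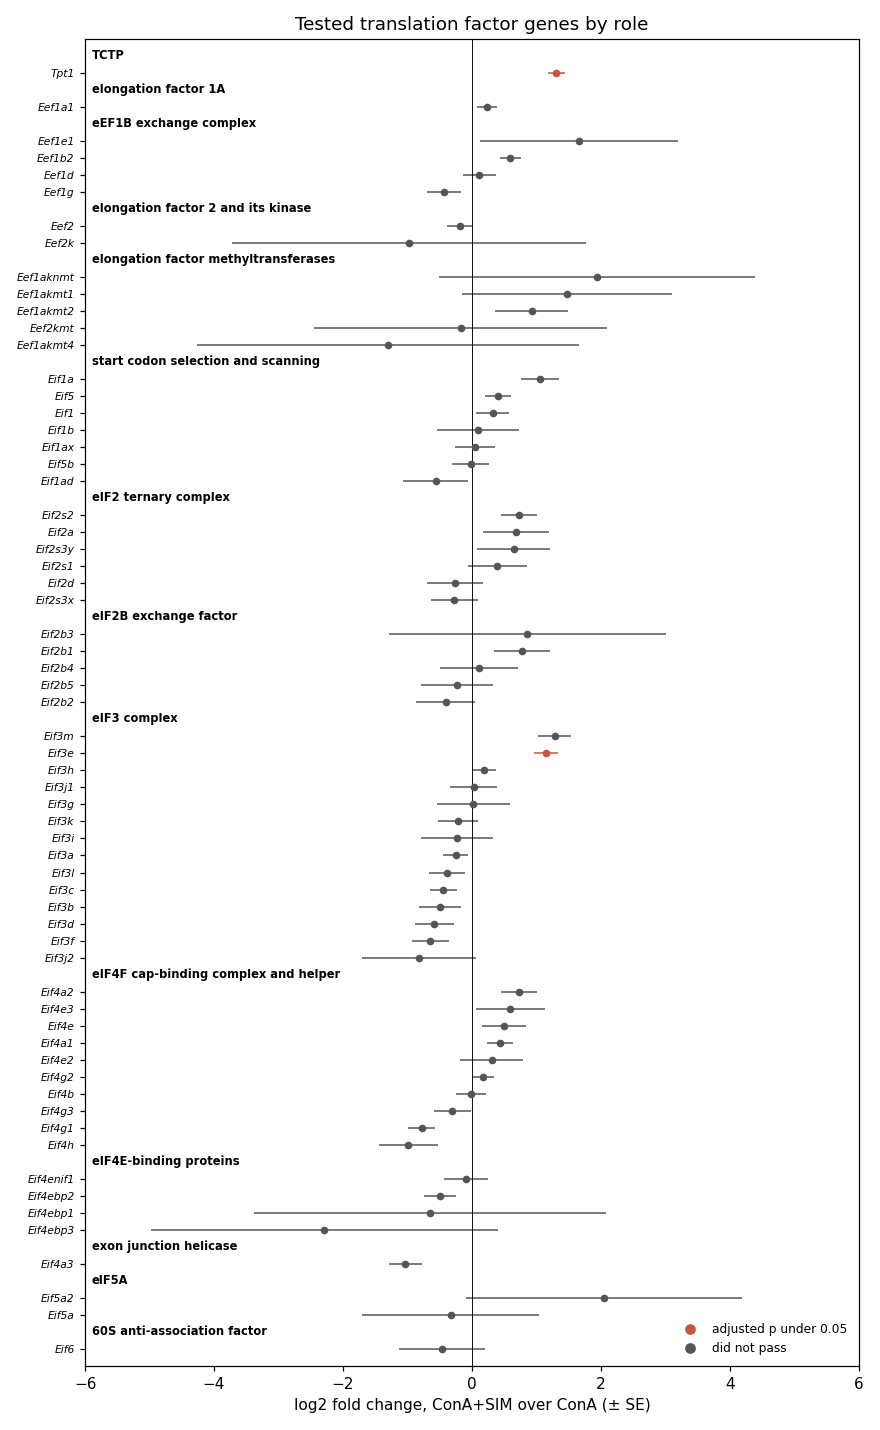
Log2 fold change of ConA+SIM over ConA with its standard error for the 63 tested translation factor genes, grouped by role; Tpt1 and Eif3e, in red, passed the edgeR test at an adjusted p under 0.05. Points lie on both sides of 0 in most roles, and the widest bars belong to genes with few counts or with libraries at 0.

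Tpt1 showed the clearest difference. It stood at 3479, 3560 and 4039 CPM in the ConA libraries, given here and below in the order of their replicate numbers, and at 9640, 9888 and 7978 CPM in the ConA+SIM libraries. Each ConA+SIM library was above each ConA library, and the spread within a group was small beside the gap. Tpt1 (chromosome 14, 75845256 to 75848303, GRCm38) thus rose from a mean of 3693 ± 303 to 9169 ± 1039 CPM (SD, 3 libraries per group), 2.48-fold, with a log2 fold change of 1.31 ± 0.14 (SE, edgeR adjusted p = 0.0253). Tpt1 took 10.6% to 11.3% of the counts of all translation factor genes in ConA and 18.4% to 23.2% in ConA+SIM.

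The gene of the main elongation factor, Eef1a1, was the most abundant of the 68. It stood at 10788, 11670 and 14846 CPM in ConA and 13319, 13764 and 16955 CPM in ConA+SIM. The groups overlapped, and the log2 fold change of 0.24 ± 0.15 did not pass (edgeR adjusted p = 0.828). Eef2, the translocase gene, was at 4079, 3434 and 5087 CPM in ConA and 3782, 4349 and 2922 CPM in ConA+SIM. These groups overlapped too, at a log2 fold change of -0.19 ± 0.19 (edgeR adjusted p = 0.999). The CPM ratio of Tpt1 to Eef1a1 within a library, used here only to compare libraries, was 0.322, 0.305 and 0.272 in ConA and 0.724, 0.718 and 0.471 in ConA+SIM. The ratio was higher in every ConA+SIM library. The 15 such ratios computed here were chosen with earlier results of these data known and are given without a test. With 3 libraries against 3, a permutation p could not fall below 0.1. Among those not printed, Eif3e to Eif3d, Eif3m to Eif3h and Eif4a3 to Eif4a1 were separate between the groups. Those of Eif1b to Eif1, Eif4g3 to Eif4g1, Eif5a2 to Eif5a, Eef1a1 to Eef2 and Eif2s2 to Eif2s1 overlapped.

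Of the 4 tested genes of the eEF1B exchange complex, 3 had positive and 1 a negative log2 fold change, and 0 passed in edgeR (1 higher at an unadjusted p under 0.05, Eef1b2, which DESeq2 called). Eef1b2, the gene of the catalytic alpha subunit, was at 856, 964 and 1067 CPM in ConA and 1589, 1373 and 1390 CPM in ConA+SIM. The groups were separate, yet the log2 fold change of 0.59 ± 0.16 did not pass in edgeR (adjusted p = 0.262). Eef1g, the gamma subunit gene, was at 589, 455 and 861 CPM in ConA and 571, 387 and 452 CPM in ConA+SIM, with overlapping groups and a log2 fold change of -0.44 ± 0.27 (edgeR adjusted p = 0.801). Eef1d, the delta subunit gene, stood at 208 ± 40.5 and 226 ± 28.2 CPM. Eef1e1, whose product sits in the multi-tRNA synthetase complex, was at 8.38, 0 and 52.7 CPM in ConA and 83.9, 50.2 and 58.4 CPM in ConA+SIM. ConA replicate 3 lay among the ConA+SIM libraries in that gene, and the other ConA libraries lay below them. The CPM ratio of Eef1b2 to Eef1g ran from 1.24 to 2.12 in ConA and from 2.78 to 3.55 in ConA+SIM.

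The summed level of Eef1a1, Eef1b2, Eef1d, Eef1g and Eef2 was 18440 ± 3181 CPM in ConA and 20510 ± 1285 CPM in ConA+SIM. The difference of 0.17 on the log2 scale was within the spread of the libraries (exact two-sided permutation p = 0.4, where 3 against 3 cannot go below 0.1). Eef2k, the kinase gene that restrains eEF2, was at 9.20, 20.8 and 8.62 CPM in ConA and had counts in 1 ConA+SIM library, replicate 2, at 19.7 CPM. A count of 0 allows up to 3 counts, or 0.118 to 0.175 CPM across the libraries, which covers counting error only. The 5 tested methyltransferase genes of elongation factors had log2 fold changes from -1.31 to 1.94, and 0 passed in edgeR, DESeq2 or limma-voom or had an unadjusted p under 0.05. Eef1akmt2, a lysine methyltransferase gene for eEF1A, was at 34.5, 37.9 and 20.3 CPM in ConA and 63.2, 83.2 and 30.5 CPM in ConA+SIM.

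**Figure D2:**
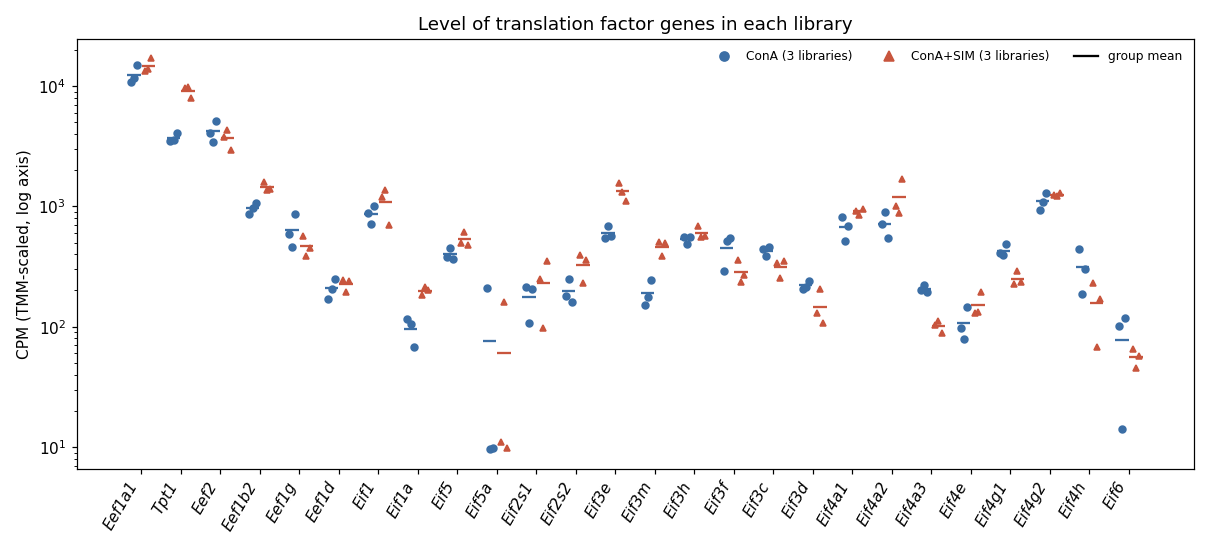
Level of 26 translation factor genes in each library, in CPM on a log axis, with ConA libraries as circles, ConA+SIM libraries as triangles and group means as lines. The 3 ConA+SIM values of Tpt1, between 7978 and 9888 CPM, lie above the 3 ConA values, whereas those of Eef1a1 and Eef2 overlap with ConA.

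eIF3 is the largest initiation factor and is built from many subunits. Of 14 tested subunit genes, 5 had positive and 9 negative log2 fold changes; Eif3e rose, 0 fell and 13 did not pass in edgeR (2 higher and 0 lower at an unadjusted p under 0.05). Eif3e was at 547, 684 and 569 CPM in ConA and 1556, 1328 and 1104 CPM in ConA+SIM. All ConA+SIM libraries were above all ConA libraries. Eif3e (chromosome 15, 43250040 to 43282736) rose 2.22-fold, from 600 ± 73.3 to 1329 ± 226 CPM (log2 fold change 1.15 ± 0.19, edgeR adjusted p = 0.0397). Eif3m, a subunit gene of the PCI family like Eif3e, was at 152, 177 and 243 CPM in ConA and 509, 385 and 495 CPM in ConA+SIM. Its groups were also separate, with a log2 fold change of 1.28 ± 0.25 that missed the threshold (edgeR adjusted p = 0.0743).

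Eif3h, which binds next to Eif3m in the complex, differed little, at 557, 489 and 553 CPM in ConA and 693, 558 and 568 CPM in ConA+SIM. The lowest ConA+SIM value exceeded the highest ConA value by a narrow margin, and the log2 fold change was 0.19 ± 0.18 (edgeR adjusted p = 0.999). Eif3c, a core subunit gene, was at 439, 387 and 456 CPM in ConA and 341, 253 and 348 CPM in ConA+SIM. Eif3d, whose product can bind the cap, was at 206, 215 and 241 CPM in ConA and 129, 205 and 107 CPM in ConA+SIM. In Eif3c, Eif3d and Eif3l the ConA+SIM libraries were all below the ConA libraries, with log2 fold changes of -0.44 ± 0.21, -0.58 ± 0.30 and -0.38 ± 0.28, none of which passed. Eif3f, an MPN-domain subunit gene with a log2 fold change of -0.65 ± 0.29 (edgeR adjusted p = 0.572), was at 290, 517 and 542 CPM in ConA and 359, 234 and 268 CPM in ConA+SIM, and ConA replicate 1 lay among the ConA+SIM values. Eif3j2, a copy of the loosely bound subunit gene Eif3j, was at 38.5, 33.8 and 21.9 CPM in ConA and 26.6, 8.58 and 18.1 CPM in ConA+SIM (-0.82 ± 0.89), with overlap.

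Within a library, the CPM ratio of Eif3e to Eif3c was 1.25, 1.77 and 1.25 in ConA and 4.56, 5.25 and 3.17 in ConA+SIM. The ratio of Eif3m to Eif3f was 0.523, 0.342 and 0.448 in ConA and 1.42, 1.64 and 1.85 in ConA+SIM. Both ratios were separate between the groups. In each, the first gene had a positive and the second a negative log2 fold change. Summed over the 14 subunit genes, eIF3 stood at 3694, 3910 and 4051 CPM in ConA and 4878, 4060 and 4157 CPM in ConA+SIM, a log2 difference of 0.16. The values were separate by a margin of under 10 CPM between the highest ConA and the lowest ConA+SIM library, and Eif3e alone contributed 1104 to 1556 CPM of each ConA+SIM sum.

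**Figure D3:**
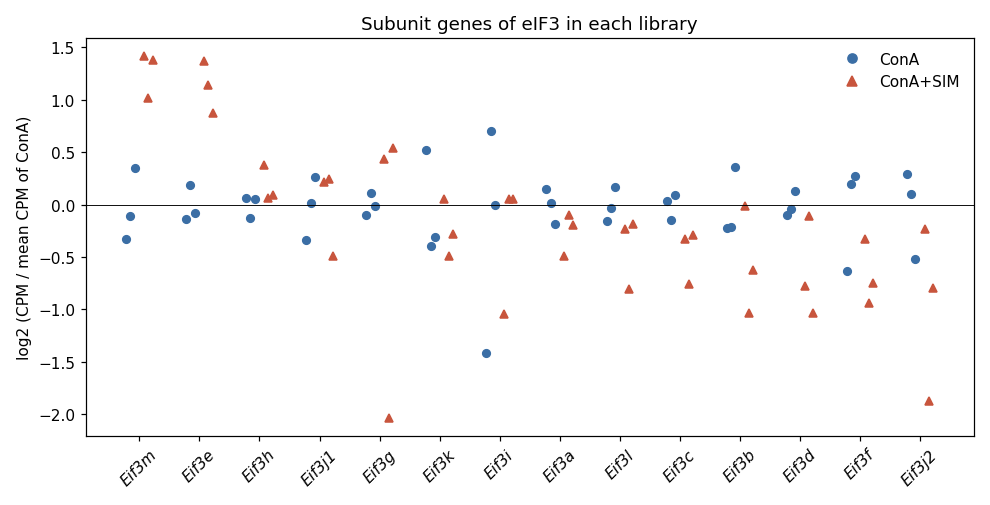
Level of the 14 tested eIF3 subunit genes in each library, as log2 of CPM over the mean CPM of ConA, with ConA as circles and ConA+SIM as triangles. Eif3m and Eif3e lie above all ConA values in the 3 ConA+SIM libraries, whereas Eif3l, Eif3c and Eif3d lie below them, and 1 ConA+SIM library has a low value of Eif3g.

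Among genes of the cap-binding complex eIF4F and its helpers, 0 of 10 tested passed in edgeR, with 6 positive and 4 negative log2 fold changes. At an unadjusted p under 0.05, Eif4a2 was higher and Eif4g1 lower, and DESeq2 called Eif4g1 alone. Eif4g1, the main scaffold gene, was at 408, 396 and 483 CPM in ConA and 226, 289 and 235 CPM in ConA+SIM. The groups did not overlap, at a log2 fold change of -0.78 ± 0.21 (edgeR adjusted p = 0.259; DESeq2 adjusted p = 0.00849; 0.00849 to 1.00 over 18 alternatives). Its relative Eif4g2, a scaffold that lacks the eIF4E-binding site, was at 935, 1082 and 1285 CPM in ConA and 1232, 1219 and 1284 CPM in ConA+SIM. The groups overlapped, and the log2 fold change was 0.18 ± 0.17. The CPM ratio of Eif4g2 to Eif4g1 ran from 2.29 to 2.73 in ConA and from 4.21 to 5.47 in ConA+SIM. For the scaffold gene Eif4g3 the log2 fold change was -0.31 ± 0.29.

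The RNA helicase genes Eif4a1 and Eif4a2 stood at 379 ± 86.4 and 326 ± 81.3 CPM per kb of transcript in ConA. Eif4a1 was at 818, 512 and 688 CPM in ConA and 919, 855 and 948 CPM in ConA+SIM, with separate groups and a log2 fold change of 0.43 ± 0.20 (edgeR adjusted p = 0.608). Eif4a2 was at 719, 900 and 541 CPM in ConA and 1014, 880 and 1674 CPM in ConA+SIM. Its ConA+SIM replicate 2 lay below ConA replicate 2, and the log2 fold change was 0.72 ± 0.28 (edgeR adjusted p = 0.466). The CPM ratio of Eif4a2 to Eif4a1 overlapped between groups, at 0.880, 1.76 and 0.786 in ConA and 1.10, 1.03 and 1.77 in ConA+SIM. The cap-binding protein gene Eif4e was at 97.1, 79.1 and 147 CPM in ConA and 129, 132 and 196 CPM in ConA+SIM, again with overlap. Eif4h, the gene of a helicase cofactor, spread widely, at 443, 189 and 300 CPM in ConA and 233, 68.1 and 170 CPM in ConA+SIM (log2 fold change -0.98 ± 0.46, edgeR adjusted p = 0.601).

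Eif4a3 belongs to this helicase family by sequence but encodes a core part of the exon junction complex, which marks spliced mRNA. It was at 201, 222 and 195 CPM in ConA and 103, 111 and 88.2 CPM in ConA+SIM. Each ConA+SIM value was well below each ConA value, and both groups were tight. The log2 fold change was -1.03 ± 0.26, which did not pass in edgeR (adjusted p = 0.202) and passed in DESeq2 (adjusted p = 0.00383; 0.00383 to 1.00 over 18 alternatives). Of the translation factor genes at 10 CPM or more, the largest negative log2 fold change was that of the eIF4E-binding protein gene Eif4ebp3 (-2.29 ± 2.70), at 0, 43.0 and 17.1 CPM in ConA and 4.48, 0 and 7.80 CPM in ConA+SIM. A library of each group was at 0 counts there, and the groups overlapped.

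The 4 genes of eIF4E-binding proteins and partners all had negative log2 fold changes, and 0 passed in edgeR, DESeq2 or limma-voom or had an unadjusted p under 0.05. Eif4ebp2, a repressor of eIF4E, was at 264, 204 and 264 CPM in ConA and 165, 198 and 155 CPM in ConA+SIM. These groups were narrowly separate, with a log2 fold change of -0.50 ± 0.24 (edgeR adjusted p = 0.646). Eif4ebp1, the best studied mTOR-controlled repressor, was low and patchy, at 16.4, 0 and 22.2 CPM in ConA and 2.99, 0 and 21.7 CPM in ConA+SIM. No direction could be read from it at this depth.

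Of 7 tested genes for start codon selection, scanning and subunit joining, 5 had positive log2 fold changes and 0 passed in edgeR; at an unadjusted p under 0.05, 1 was higher, Eif1a, which DESeq2 also called. Eif1a was at 116, 105 and 67.3 CPM in ConA and 182, 212 and 202 CPM in ConA+SIM. All ConA+SIM values were higher, at a log2 fold change of 1.05 ± 0.29 (edgeR adjusted p = 0.278; DESeq2 adjusted p = 0.0177; 0.0177 to 1.00 over 18 alternatives). Its X-linked paralog Eif1ax encodes nearly the same protein and did not follow, at 130, 108 and 122 CPM in ConA and 161, 108 and 102 CPM in ConA+SIM. The CPM ratio of Eif1a to Eif1ax was 0.889, 0.973 and 0.551 in ConA and 1.13, 1.95 and 1.99 in ConA+SIM. Eif5, the gene of the GTPase-activating protein of eIF2, was at 380, 455 and 365 CPM in ConA and 498, 615 and 481 CPM in ConA+SIM, separate but short of the threshold (0.41 ± 0.20, edgeR adjusted p = 0.64). Eif1, the start codon fidelity factor gene, was at 880, 718 and 1015 CPM in ConA and 1199, 1365 and 697 CPM in ConA+SIM. ConA+SIM replicate 3 was the lowest of all 6 libraries in Eif1 while the other 2 ConA+SIM libraries were the highest. Its paralog Eif1b was at 82.3, 32.2 and 66.9 CPM in ConA and 30.6, 128 and 35.5 CPM in ConA+SIM, with ConA+SIM replicate 2 the highest of all.

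Of 6 tested genes of eIF2 and related tRNA-loading factors, 4 had positive log2 fold changes and 0 passed in edgeR, DESeq2 or limma-voom; 1 was higher at an unadjusted p under 0.05, Eif2s2. Eif2s1, the gene of the alpha subunit that stress kinases phosphorylate, was at 214, 108 and 206 CPM in ConA and 247, 98.1 and 348 CPM in ConA+SIM. Replicate 2 was the lowest of each group. Eif2s2, the beta subunit gene, was at 181, 250 and 160 CPM in ConA and 392, 232 and 356 CPM in ConA+SIM, with overlap at ConA+SIM replicate 2 (log2 fold change 0.73 ± 0.28, edgeR adjusted p = 0.474; unadjusted p = 0.0299). The gamma subunit is encoded on both sex chromosomes, and Eif2s3x and the Y-linked Eif2s3y had log2 fold changes of -0.28 ± 0.36 and 0.65 ± 0.57. Of the 5 eIF2B exchange factor genes, 3 were positive and 2 negative, and 0 passed in edgeR, DESeq2 or limma-voom or had an unadjusted p under 0.05. Eif2b1, a regulatory subunit gene of eIF2B, was narrowly separate, at 41.7, 34.5 and 58.0 CPM in ConA and 74.7, 96.8 and 58.1 CPM in ConA+SIM.

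The last factors act at elongation and on the large subunit. Eif5a, which relieves stalled ribosomes and carries the amino acid hypusine, was at 210, 9.62 and 9.76 CPM in ConA and 11.1, 162 and 9.78 CPM in ConA+SIM. A single library of each group, ConA replicate 1 and ConA+SIM replicate 2, was high, and the rest were low. No difference between the groups was detectable at this spread (log2 fold change -0.33 ± 1.38). Its paralog Eif5a2 was low, at 0, 2.82 and 13.3 CPM in ConA and 18.7, 11.3 and 36.6 CPM in ConA+SIM (2.05 ± 2.14). Eif6, which keeps free large subunits from joining small ones, was at 101, 14.3 and 117 CPM in ConA and 65.9, 45.7 and 57.0 CPM in ConA+SIM, with ConA replicate 2 low and the other ConA libraries highest. Eif5a, Tpt1 and Eef1a1 have near-identical copies or pseudogenes elsewhere in the genome. The sources used here do not say how reads matching more than 1 place were treated, so the levels of these genes are uncertain.

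Set against transcript length, the order at the top was the same in both groups for 3 genes. In ConA, Eef1a1 stood at 6931 ± 1190 CPM per kb, Tpt1 at 3159 ± 259 and Eef2 at 1360 ± 270. In ConA+SIM the values were 8182 ± 1105, 7843 ± 889 and 1193 ± 233 CPM per kb, so that Eef1a1 and Tpt1 differed by less than their spread. Eif3e moved from place 7 to place 4 of this order, at 398 ± 48.7 and 883 ± 150 CPM per kb, and Eif4a3 from place 15 to place 29, at 137 ± 9.34 and 66.8 ± 7.69 CPM per kb. Neighbours further down the order, such as Eif4a1 (379 ± 86.4 CPM per kb in ConA) and Eef1g (341 ± 111 CPM per kb in ConA), did not differ beyond their spread. All 68 genes together held 3.37% to 3.89% of counts in ConA and 3.93% to 4.16% in ConA+SIM. Leaving out Tpt1, the sum over these genes came to 30112 ± 3574 CPM in ConA and 33808 ± 1427 CPM in ConA+SIM, which overlapped (exact two-sided permutation p = 0.3).

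Other genes that serve cytosolic and mitochondrial translation gave 0 calls among 74 tested over 7 lists (edgeR). At an unadjusted p under 0.05, 7 were higher and 1 lower (9.46% and 1.35%, against 5.31% and 3.54% of all tested genes). DESeq2 called 3 higher and 1 lower, where it called 3.31% and 1.84% of all genes. With limma-voom 1 was called higher, where it called 1.14% of all genes. Naca, which shields nascent chains at the ribosome, came closest, at 847 ± 154 CPM in ConA and 1682 ± 175 CPM in ConA+SIM (log2 fold change 0.99 ± 0.18, edgeR adjusted p = 0.0637), and its partner gene Btf3 stood at 388 ± 51.6 and 540 ± 39.8 CPM. Among poly(A)- and mRNA-binding regulators, Paip2, a repressor of poly(A)-binding protein, had a log2 fold change of 0.84 ± 0.24 and the helicase gene Ddx3x one of 0.61 ± 0.20, neither passing in edgeR. In the mTOR list Tsc2, a brake on mTOR, was at 81.3 ± 17.2 and 24.0 ± 12.5 CPM and Rheb, the GTPase that Tsc2 restrains, at 57.0 and 115 CPM. Both had separate groups and did not pass in edgeR (adjusted p = 0.335 and 0.497), while DESeq2 called Naca, Paip2, Ddx3x and Tsc2. All 8 tested termination and recycling genes had positive log2 fold changes, with a median of 0.34, among them the ribosome recycling gene Abce1 at 1.06 ± 0.42. Of all tested genes, 48.0% had a positive one. In edgeR 0 of the 8 passed, and 1 had ConA+SIM values wholly above ConA (12.5%, against 9.18% of all tested genes). Cytosolic aminoacyl-tRNA synthetase genes had a median of -0.14 over 21, mitochondrial translation factor genes one of 0.084 over 10 and eIF2 kinase and phosphatase genes one of 0.22 over 7.

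Fold changes of the translation factor genes were lower at higher GC content of the transcript, as were those of all tested genes. Over the 62 tested genes with a transcript in the annotation, Pearson's r between log2 fold change and GC content was -0.53 and Spearman's rho -0.55, against r = -0.18 and rho = -0.24 over 10344 tested genes of the table. At a mean of 50 CPM or more, r was -0.61 over 49 translation factor genes and -0.34 over 4228 genes of the table. These are descriptions across genes of the same 6 libraries, and genes are not independent replicates. The median GC content was 44.4% for members with positive and 52.8% for members with negative log2 fold changes. With log transcript length r was -0.023 over the same 62 genes and -0.19 over the 10344, and at 50 CPM or more it was -0.17 over the 49 and -0.39 over the 4228. Tpt1 had a GC content of 53.1%, while Eif4a3 (54.1%), Eif4g1 (54.2%) and Eif4h (54.5%) had negative values at a like GC content. Eif3e (40.3%), Eif1a (40.0%), Eif2s2 (42.1%), Eif4a2 (43.2%) and Eif3m (44.4%) had lower GC content and positive values, while Eif3j2 (40.1%), Eif5b (43.7%), Eif2s3x (44.1%) and Eif3a (44.5%) had negative values at a like GC content.

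**Figure D4:**
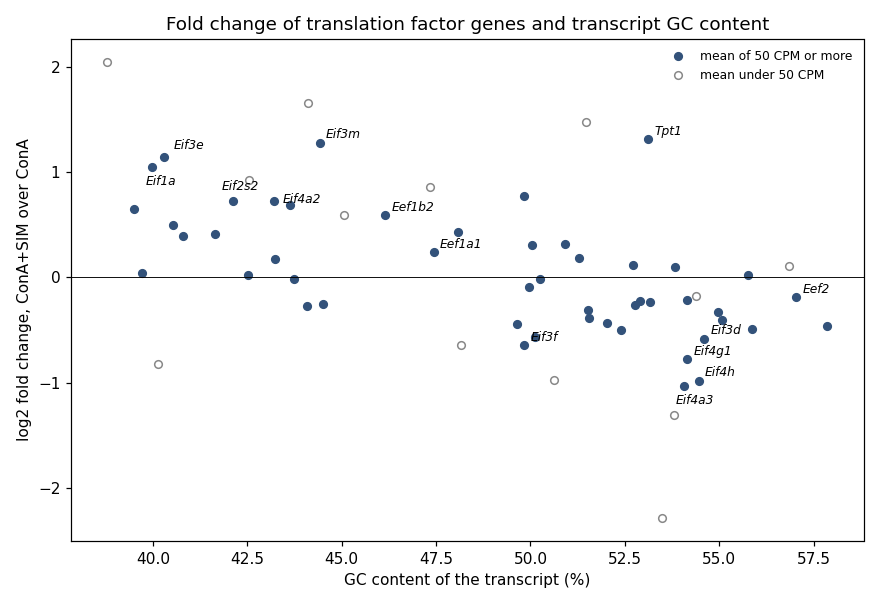
Log2 fold change of ConA+SIM over ConA against the GC content of the transcript for 62 tested translation factor genes, filled where the mean level was 50 CPM or more. Values fall from left to right (r = -0.53), and Tpt1 at 53.1% GC lies above its neighbours.

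When each library's trend with transcript length was removed, 0 translation factor genes passed (edgeR), and Tpt1 stood at 1.02, Eif3e at 0.94 and Eif3m at 0.99. With the trend in GC content removed as well, Eif3e stood at 0.19, Eif3m at 0.59 and Eif4g1 at 0.030, whereas Tpt1 stood at 1.16 and Eif4a3 at -1.02. In that fit the SE of Tpt1 was 0.29 in place of 0.14 and it did not pass. Over all tested genes with a transcript, r after this correction was 0.017 with GC content and 0.020 with log length, and over the 62 translation factor genes it was -0.21 and 0.28. Leaving out a library reduces the comparison to 3 against 2, and such fits called 0 to 3 genes over the whole table in place of 57. Tpt1 passed without ConA+SIM replicate 3 (1.40, edgeR adjusted p = 0.0375) and not without any other single library (1.26 to 1.41, adjusted p from 0.0858 to 0.244; 1.26 and 0.0898 without ConA+SIM replicate 2), and Eif3e did not pass in any of the 6 such fits (1.02 to 1.27, adjusted p from 0.0823 to 0.252).

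**Figure D5:**
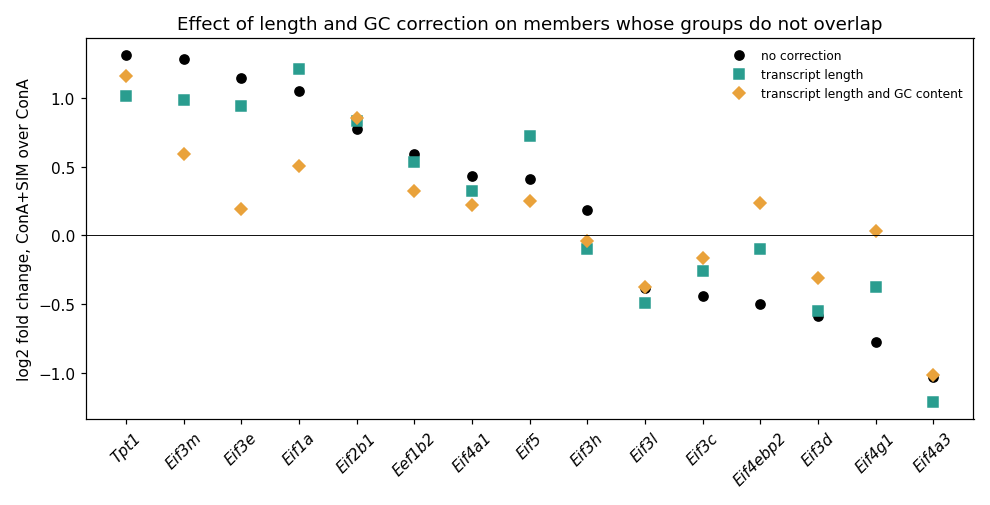
Log2 fold change of ConA+SIM over ConA for the 15 translation factor genes whose groups do not overlap, uncorrected, with the length trend of each library removed, and with the trends in length and GC content removed. With both trends removed Tpt1 is at 1.16, Eif4a3 at -1.02, Eif3e at 0.19 and Eif4g1 at 0.030, and 0 of the 15 pass in edgeR (adjusted p of 1.00 for Tpt1 and for Eif4a3).

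The oligopyrimidine tract, as defined here at annotated starts, was found less often in genes with positive than with negative log2 fold changes. Only 49 of the 63 tested genes had a promoter entry. Among those not covered were Eif3e, Eif1a, Eef1g, Eef1d, Eif3h, Eif4g2 and Eif6. The search depends on that definition and on the annotated starts, so it cannot tell which mRNAs carry a working tract. Of 24 tested translation factor genes with a promoter entry and a positive log2 fold change, 6 had the tract (25%), and of 25 with a negative one, 15 had it (60%). Over all 8285 tested genes with a promoter entry the share was 31.7%, and it was not split by sign. On the opposite strand the shares of the same 24 and 25 genes were 20.8% and 28.0%. Some counted tracts began well before the annotated start, at -43 in Eif3c and -37 in Eif4a3. The median log2 fold change was -0.25 over the 21 genes with a tract and 0.21 over the 28 without it. Among the start sites printed above, Eif3m with a tract had a log2 fold change of 1.28 and Eif3f with a longer one had -0.65, while Tpt1 with none in the window had 1.31. The absence of a match says only that those letters are not in this window.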

How the data were processed

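The authors deposited 1 table of whole-number counts for each gene, unnormalized, and each column name equals the title of 1 sample; 0 columns were unused. HISAT2 2.1.0 and build GRCm38 are named in the submitters' processing notes. The sources used here do not name the counting tool, annotation, strand setting or treatment of multiply matching reads. Genes were kept by filterByExpr of edgeR 4.0.16 (R 4.3.3), scaled by TMM and tested with its robust quasi-likelihood F test without covariates, with Benjamini and Hochberg adjustment over 10509 genes at a threshold of 0.05. CPM are counts scaled to the TMM-corrected library total. DESeq2 1.42.0 and limma 3.58.1 served as alternatives, beside RLE scaling, 2 other filters, replicate blocks, left-out libraries, length and GC offsets, summed copy rows and ribosomal protein genes left out. The procedure was also run on simulated counts, the outcome of which is not given here. In the main edgeR fit the common biological coefficient of variation was 1.12. That value is the relative spread between libraries of a group, estimated over all genes, and it is wide. Transcript length and GC content came from GENCODE M21 (GRCm38), 1 transcript per gene, and covered 98.4% of tested genes. Gene positions and promoters came from RefSeq on GRCm38; all 23505 rows matched.

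The members and lists were chosen with earlier results of these data known. Named in any case were members past the threshold, the 12 with the smallest p, the 5 with the lowest fold change at 10 CPM or more in the higher group, 14 fixed members and fixed paralog pairs. Per role up to 4 and per pathway list up to 3 genes with the smallest p could be named. Any other gene given here was picked with its values in view.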

Additional observations from a re-analysis of the deposited data

Results flagged for a closer look

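Rows for further copies of a symbol, which the name rule leaves out, held counts. Eif3i_1, a copy row of the eIF3 subunit gene Eif3i, had 1136, 54 and 74 counts in the ConA libraries, by replicate number, and 1479, 25 and 53 counts in the ConA+SIM libraries. The plain Eif3i row had 706, 2628 and 2063 counts in ConA and 737, 1451 and 1583 in ConA+SIM, so it was lowest in the 2 libraries in which the copy row was highest. Summed, the rows held 1842, 2682 and 2137 counts in ConA and 2216, 1476 and 1636 in ConA+SIM. Eif5a_1 had 174 counts in ConA replicate 1 and 0 in the other libraries; ConA replicate 1 was also the library with the highest Eif5a row, at 4868 counts. Both copy rows were noted because they lie outside the members and exceed the 3 counts that a count of 0 allows.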

How the results depend on the processing

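Genes called over the whole table numbered 57, and 537 with DESeq2, 128 with limma-voom, 137 with limma-voom and quality weights, and 0 to 3 without single libraries. They numbered 0 with the replicate block, with length offsets, with length and GC offsets, with the replicate block and length offsets together, and without ribosomal protein genes. Translation factor genes called numbered 2, and 7 with DESeq2, 0 to 1 without single libraries and 0 in those same 5 settings; with ribosomal protein genes left out, Tpt1 had an edgeR adjusted p of 0.0557 (4.97e-16 to 1.00 over 18 alternatives). Genes called on the 7 other translation lists numbered 0, and 4 with DESeq2 and 1 each with limma-voom, limma-voom with quality weights, RLE scaling and no filter. The median log2 fold change of the translation factor genes ran from -0.049 to 0.11, within 0.15, the SD between replicates. The summed elongation factor difference ran from 0.091 to 0.30 and was 0.17 with the replicate block (exact sign-flip p = 0.5). That sign-flip test paired libraries by replicate number, and with 3 pairs it could not reach 0.05. Of 23 named genes, 15 kept their direction in all 18 alternatives. The others changed sign: with length and GC offsets Eef1a1 (-0.0012), Eef2 (0.45; 0.072 with length offsets), Eef2k (0.081), Eif2s1 (-0.13; -0.025 to 0.76 without single libraries) and Eif4g1 (0.030); Eif1 with the replicate block and length offsets (-0.010); Eif4ebp1 with quality weights (0.22) and without single libraries (-3.10 to 0.020, the latter without ConA replicate 3); and Eif5a without ConA replicate 1 (2.65), ConA+SIM replicate 1 (0.16) or ConA+SIM replicate 3 (0.17), and -2.87 without ConA+SIM replicate 2. The cause was not tested. Replicate numbers share no known origin: same-numbered libraries had deviation correlations of 0.011, 0.0088 and 0.033, and not every library matched its own number best. Libraries at 0 counts limit what can be read for the rarest genes.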
